A study of Homo sapiens with 16 samples.

Results

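The comparison described here set the HCT116 line that carries an NAA40-directed hairpin against the line that carries a scrambled one, with both lines labelled as doxycycline-treated. Its members were 8 of the 16 libraries of the series, namely those of the groups NAA40-KD (+dox) and SCR (+dox), and all genes above 1 CPM, the count scaled to the library's total, in at least 4 of the 8, which left 13869 of the 33937 genes counted. HCT116 is an established human colorectal carcinoma line. Both lines were made with an inducible short hairpin RNA (shRNA) construct, and the libraries of both groups are labelled as treated with doxycycline (dox) at 1 μg/ml for 96 h, so that by their labels the groups compared shared dox. Each group held 4 RNA samples, which the methods call independent. The remaining 8 libraries, SCR (−dox) and NAA40-KD (−dox), are the same lines labelled as grown without dox and are used only for contrast. Whether each line was a single clone is not given in the sources used here, so a difference between the lines that did not depend on the hairpin cannot be told apart from an effect of the hairpin within the (+dox) libraries alone. Fewer cells of a type and less RNA per cell cannot be told apart in such bulk RNA.

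NAA40 is the enzyme that acetylates the N-terminal serine of histones H2A and H4, and it does so as the chain leaves the ribosome. The integrated stress response (ISR), to which many of the genes described below belong, begins with kinases that phosphorylate the translation factor eIF2α. General translation then slows, while the message of the transcription factor ATF4 is translated more. ATF4 and its partners of the C/EBP family switch on genes for amino acid uptake, amino acid synthesis and tRNA charging, together with feedback inhibitors such as TRIB3 and the phosphatase subunit PPP1R15A.

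The hairpin's target is shown first because every direction below rests on the labels. The site lies in coding sequence on the plus strand at chr11:63953984-63954004 of GRCh38, in exon 7 of 8 of the NAA40 transcript ENST00000377793.8. It was located with a rescue primer of the study that had been changed at 6 bases, and the capitals mark those bases in the native and the resistant sequence.
NAA40 site: gaaGgtTatgTtAacAgtAtt
resistant primer: gaaAgtGatgCtGacGgtGtt

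NAA40 itself was not lower in the libraries labelled NAA40-KD (+dox). Its level was 26.1, 28.5, 26.2 and 29 CPM in SCR (+dox), after scaling by the trimmed mean of M values (TMM), and 31.5, 29.4, 28.7 and 32 CPM in NAA40-KD (+dox). The difference of the means was 2.94 CPM (exact two-sided permutation test over 70 arrangements, p = 0.0571, where 0.0286 is the smallest p possible). Without NAA40-KD (+dox) replicate 3 it was 3.63 CPM with p = 0.0286 (exact permutation), and in the other leave-one-out sets p was at least 0.0571 (exact permutation). The fit across all genes gave a log2 fold change of 0.15 ± 0.1 (SE, edgeR adjusted p = 0.281). In the libraries labelled (−dox) the same contrast was −1.31 (edgeR adjusted p = 0.00521), and the difference between the contrasts was 1.46 (edgeR adjusted p = 0.00022). The targeted gene therefore goes against the (+dox) label, and the groups are called below by their labels only. Whether the (+dox) and (−dox) labels of either line were exchanged was not tested, and had those of the NAA40-KD line alone been exchanged, dox would differ between the groups compared.

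The levels described below are TMM-scaled CPM, which compare libraries for one gene and not one gene with another. Log2 fold changes are NAA40-KD (+dox) minus SCR (+dox), and their errors are standard errors. Adjusted p-values come from the quasi-likelihood test of edgeR, adjusted over all 13869 genes by the method of Benjamini and Hochberg, and a gene is said to rise or fall at an adjusted p under 0.05. At that threshold 1896 genes were lower (13.7%) and 1506 were higher (10.9%). With a change above 2-fold as well, which is called differential expression here, 250 genes were lower (1.8%) and 48 were higher (0.346%). Most changes were small, with a median size of 0.47 on the log2 scale among the genes past the threshold. Of the lower genes 13.2% exceeded 2-fold, against 3.19% of the higher genes. The median log2 fold change of all genes was −0.0042 and lay between −0.02 and 0.012 under the other scalings tried. In a fit over all 16 libraries, which shares 1 estimate of the spread, 966 genes passed in place of 3402, and of 237 genes that passed among those followed by name 108 no longer did. That fit includes NAA40-KD (−dox) replicate 4, which stood apart from its group, and it was not repeated without that library.

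Weakly expressed genes made up much of the differentially expressed set. Of the 298 such genes, 146 lower and 40 higher ones had a mean under 5 CPM, a class of 2759 tested genes. Over 100 CPM, where 2144 genes were tested, 18 were lower and 0 were higher. Without a filter on low counts there were 504 such genes and with a minimum in every library 168, so that this count moves with the filter. Library totals of the 8 libraries ran from 11065606 to 13855486 counts. On the first principal component, with 50.2% of the variance, the NAA40-KD (+dox) libraries lay close together at 17.9 to 18.6 and the SCR (+dox) libraries between −25.9 and −11.7. The spread differed as well, with a median SD per gene of 0.188 in SCR (+dox) and 0.096 in NAA40-KD (+dox) on the log2 scale, and 80.9% of genes were more variable in SCR (+dox). Its part in the results was not tested.

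**Figure D1:**
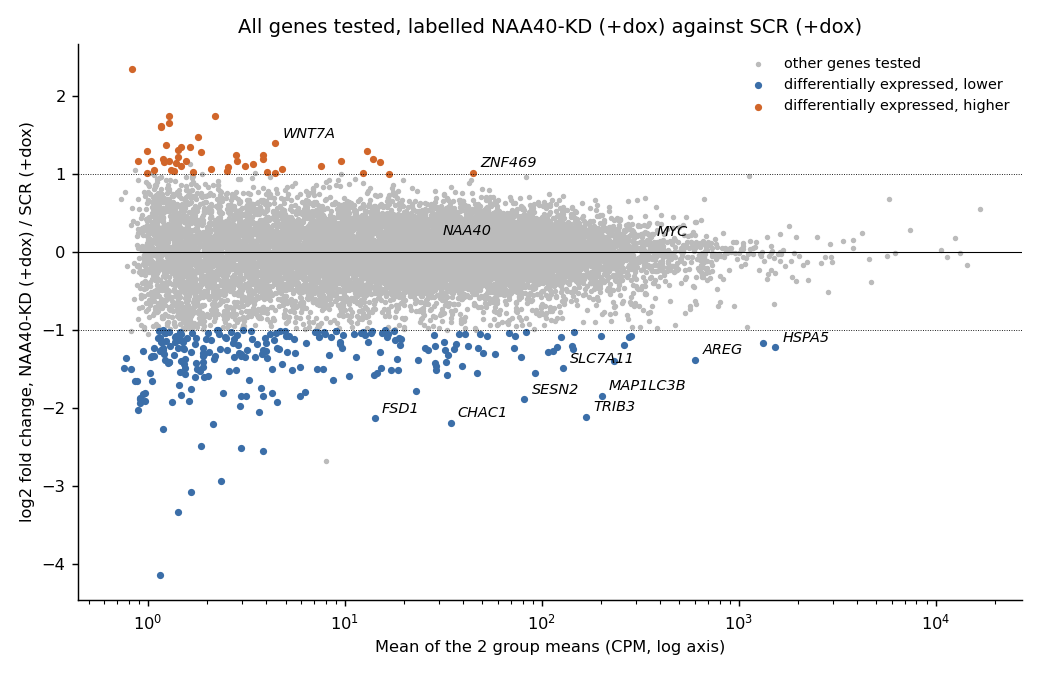
Log2 fold change, NAA40-KD (+dox) over SCR (+dox), of each of the 13869 tested genes against the mean of its group means in CPM (log axis), with differentially expressed genes in blue (250 lower) and orange (48 higher) and dotted lines at 2-fold. Blue points reach past 1000 CPM, whereas no orange point lies over 100 CPM.

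The labelled cell type was checked by its markers. EPCAM, KRT8, KRT18, KRT19, CDH1 and CDX2, genes of colorectal epithelium, were among the 6 of 9 markers that passed the filter, whereas VIL1, CEACAM5 and CEACAM6 did not. EPCAM lay between 286 and 398 CPM over the 8 libraries. Of 20 markers of other cell types 2 passed the filter, namely COL1A1 and VWF, and 0 passed the test. COL1A1, a collagen chain, was at 67.2 to 94 CPM, with the groups overlapping. Defining markers of the other types were otherwise below the filter.

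ISR genes fell as a group. Of 31 listed ISR regulators and targets 27 were tested, 19 fell (70.4%), 3 rose (11.1%) and 5 did not pass, and 10 were differentially expressed, all lower. Such shares of a list's tested genes, here and below, compare with 13.7% of all genes that fell and 10.9% that rose. The list's median log2 fold change was −0.78 against −0.0042 for all genes. In 17 of the 27 the groups did not overlap and NAA40-KD (+dox) was lower, where 13.9% of all tested genes did this. Between 17 and 19 members fell when each library was left out in turn, and 14 fell in a fit over all 16 libraries.

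**Figure D2:**
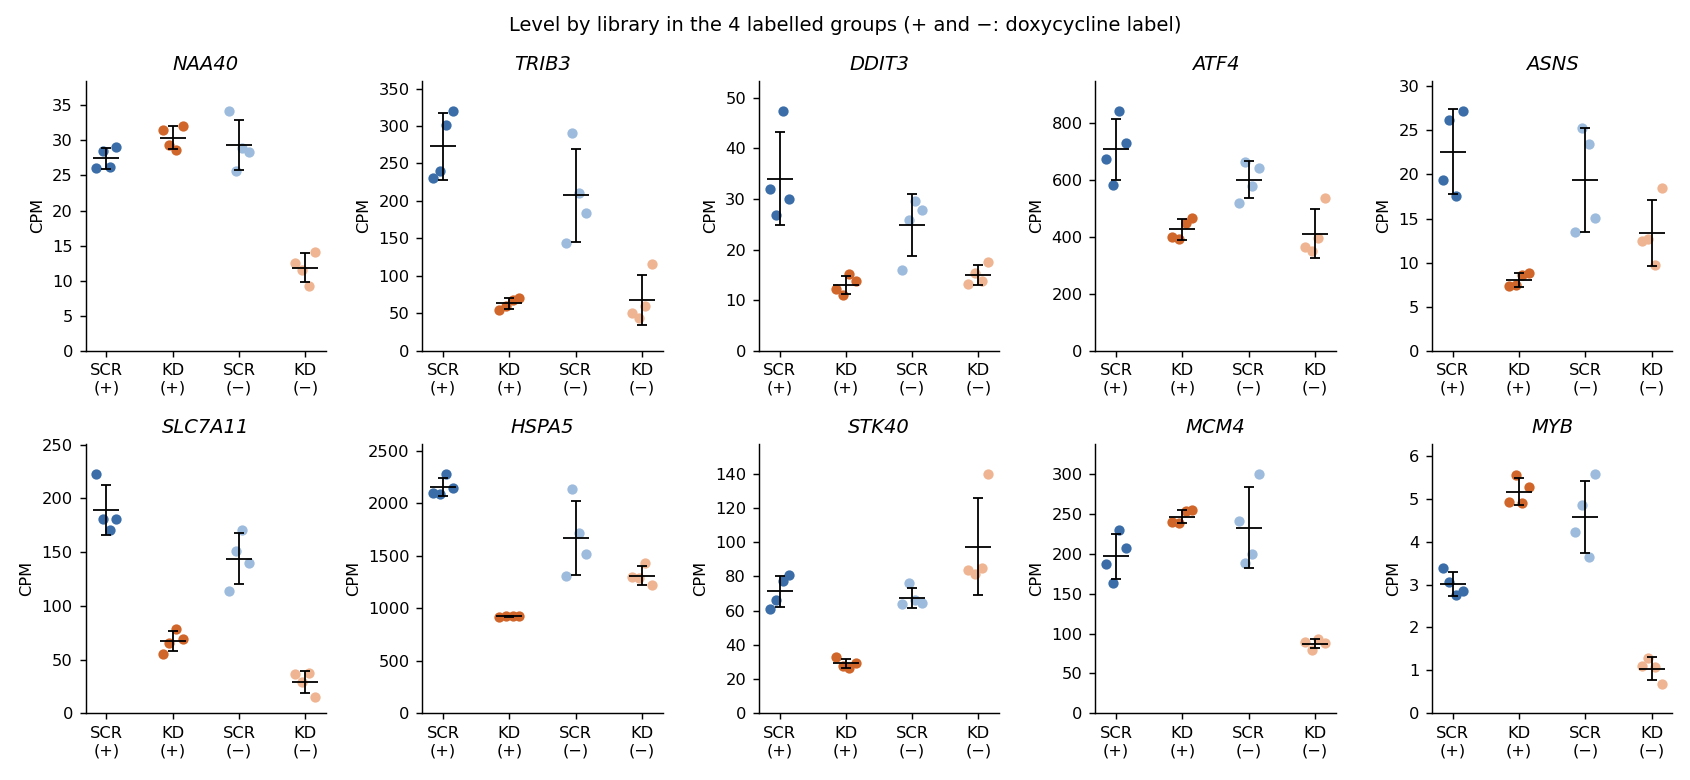
TMM-scaled CPM (linear axes from 0) of 10 genes in each library of the 4 labelled groups, with KD for NAA40-KD, 1 point a library, a horizontal mark for the group mean and whiskers for the SD. The SCR (+dox) and NAA40-KD (+dox) points of TRIB3, DDIT3, ATF4, ASNS, SLC7A11, HSPA5 and STK40 do not overlap, while those of NAA40 overlap at 28.7 to 29 CPM.

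TRIB3, a pseudokinase that restrains ATF4 and AKT signalling, stood at 230, 240, 301 and 320 CPM in SCR (+dox). It stood at 54.9, 60.2, 67.1 and 70.4 CPM in NAA40-KD (+dox). The groups are far apart, with a log2 fold change of −2.11 ± 0.12 (edgeR adjusted p = 2.2e-09). CHAC1, which degrades glutathione, was at 45.3, 34.7, 78.6 and 67.8 CPM in SCR (+dox) and at 7.57, 9.34, 16.3 and 16.1 CPM in NAA40-KD (+dox). It fell by 2.19 ± 0.27 on the log2 scale (edgeR adjusted p = 7.75e-05), and replicates 3 and 4 were the higher ones in both groups. SESN2, a leucine sensor that restrains mTORC1, was at 107, 111, 139 and 158 CPM in SCR (+dox) against 30.9, 29, 39.7 and 39.2 CPM in NAA40-KD (+dox). Its log2 fold change was −1.89 ± 0.13 (edgeR adjusted p = 2.34e-08).

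Regulators of the response fell with its targets. ATF4, the central transcription factor, was at 674, 585, 844 and 731 CPM in SCR (+dox) and at 399, 394, 450 and 466 CPM in NAA40-KD (+dox). It fell by 0.73 ± 0.11 (edgeR adjusted p = 7.68e-05), less than TRIB3 or CHAC1, and the groups did not overlap. DDIT3, the C/EBP-family factor also called CHOP, was at 31.9, 26.9, 47.4 and 29.9 CPM in SCR (+dox) and at 12.3, 11, 15.1 and 13.7 CPM in NAA40-KD (+dox). Its log2 fold change was −1.39 ± 0.16 (edgeR adjusted p = 6.14e-06). The gene overlaps the methionyl-tRNA synthetase gene, MARS1, whose log2 fold change was −0.32, and reads of overlapping genes cannot be told apart where the strand setting is not known.

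The feedback arm showed the same direction. PPP1R15A, the stress-induced subunit that brings a phosphatase to eIF2α, was at 139, 164, 192 and 174 CPM in SCR (+dox) and at 81.7, 77.5, 62.5 and 65 CPM in NAA40-KD (+dox), a log2 fold change of −1.22 ± 0.11 (edgeR adjusted p = 4.3e-07). PPP1R15B, its constitutive relative, fell less, by 0.4 ± 0.08 (edgeR adjusted p = 0.00142). ATF3 was at 68.1, 111, 105 and 112 CPM in SCR (+dox) and at 53.4, 50, 45.1 and 39.3 CPM in NAA40-KD (+dox), a fall of 1.08 ± 0.14 (edgeR adjusted p = 1.99e-05). Further falls past 2-fold were those of DDIT4 (−1.30), NIBAN1 (−1.16), JDP2 (−1.13) and CEBPB (−1.05). The eIF2α kinases went the other way. EIF2AK4, which senses uncharged tRNA, was at 110, 102, 101 and 103 CPM in SCR (+dox) and at 138, 145, 150 and 143 CPM in NAA40-KD (+dox), a rise of 0.47 ± 0.08 (edgeR adjusted p = 0.00039). EIF2AK2 rose by 0.56 and EIF2AK1 by 0.30, while EIF2AK3 had a log2 fold change of 0.23 that did not pass (edgeR adjusted p = 0.209).

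Genes for amino acid supply were mixed, with their largest changes downward. Of 25 tested amino acid transporters 9 fell (36%) and 6 rose (24%), with a median of −0.20. Without NAA40-KD (+dox) replicate 2, 3 or 4 the number that rose was 3. SLC7A11, the cystine carrier, was at 223, 181, 171 and 181 CPM in SCR (+dox) and at 55.7, 65.5, 78.8 and 69.1 CPM in NAA40-KD (+dox), a log2 fold change of −1.49 ± 0.11 (edgeR adjusted p = 3.94e-08). SLC7A5, the light chain of the leucine exchanger LAT1, was at 1380, 1350, 1370 and 1760 CPM in SCR (+dox) and at 684, 690, 809 and 817 CPM in NAA40-KD (+dox), a log2 fold change of −0.97 ± 0.1 (edgeR adjusted p = 3.3e-06). Its heavy chain SLC3A2 fell equally, by 0.97 ± 0.09 (edgeR adjusted p = 4.3e-07). The carriers that rose included the glutamate carriers SLC1A3 (0.92) and SLC1A1 (0.65) and the cationic carrier SLC7A2 (0.62).

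In amino acid and folate one-carbon synthesis 10 of 34 tested genes fell (29.4%) and 5 rose (14.7%), with a median of −0.11. ASNS, asparagine synthetase, was at 19.4, 26.2, 17.5 and 27.2 CPM in SCR (+dox) and at 7.29, 7.49, 8.59 and 8.78 CPM in NAA40-KD (+dox), a log2 fold change of −1.48 ± 0.15 (edgeR adjusted p = 1.64e-06). PSAT1, a serine synthesis enzyme, was at 387, 327, 387 and 347 CPM in SCR (+dox) and at 142, 144, 178 and 171 CPM in NAA40-KD (+dox), a log2 fold change of −1.19 ± 0.1 (edgeR adjusted p = 1.16e-07). The serine branch did not fall evenly, as PSPH fell by 0.67 and PHGDH by 0.40. MTHFD2, the mitochondrial folate enzyme, was at 405, 374, 389 and 346 CPM in SCR (+dox) and at 166, 174, 191 and 181 CPM in NAA40-KD (+dox). It fell by 1.09 ± 0.08 (edgeR adjusted p = 8.07e-08), and the groups were well separated. GOT1, the cytosolic aspartate aminotransferase, fell by 1.4 ± 0.09 (edgeR adjusted p = 1.38e-08). In the methionine cycle, MTR, methionine synthase, rose by 0.57 ± 0.11 (edgeR adjusted p = 0.000921). TYMS, thymidylate synthase, gave 0.19 ± 0.12 (edgeR adjusted p = 0.25) and MAT1A, which makes S-adenosylmethionine in the liver, gave −0.02 ± 0.21 (edgeR adjusted p = 0.951), so neither passed. In the libraries labelled (−dox) both passed, TYMS with a log2 fold change of −0.99 (edgeR adjusted p = 0.0102) and MAT1A with one of 2.11 (edgeR adjusted p = 0.00238). The differences between the contrasts were 1.19 for TYMS (edgeR adjusted p = 0.00214) and −2.12 for MAT1A (edgeR adjusted p = 0.000311).

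All 21 cytosolic aminoacyl-tRNA synthetase genes were tested, 9 fell (42.9%), 1 rose (4.76%) and 0 were differentially expressed, with a median of −0.19. AARS1, the alanyl enzyme, had a log2 fold change of −0.79 ± 0.08 (edgeR adjusted p = 3.3e-06) and SARS1, the seryl enzyme, one of −0.79 ± 0.08 (edgeR adjusted p = 1.35e-06). GARS1 fell by 0.69, CARS1 by 0.57 and WARS1 by 0.56, and the one rise was that of the paralogue TARS3 (0.39). The rises were 3 without SCR (+dox) replicate 1 and 2 without SCR (+dox) replicate 3.

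Endoplasmic reticulum (ER) chaperones did not move as a group. Of 25 tested genes of the unfolded protein response 5 fell (20%) and 1 rose (4%), with a median of −0.03. The number that fell was 3 without NAA40-KD (+dox) replicate 3 or 4, and the 1 rise was lost without any one of the NAA40-KD (+dox) libraries and became 2 without SCR (+dox) replicate 2. HSPA5, the chief ER chaperone, was the exception at 2100, 2090, 2280 and 2140 CPM in SCR (+dox) and 920, 924, 931 and 925 CPM in NAA40-KD (+dox). The replicates were close and the groups clearly apart, with a log2 fold change of −1.22 ± 0.08 (edgeR adjusted p = 1.57e-08). HERPUD1, which serves ER-associated degradation, fell by 0.85 ± 0.09 (edgeR adjusted p = 3.88e-06). Among heat shock genes 3 rose, namely the cytosolic chaperones HSPA8 (758 to 1490 CPM on average, log2 fold change 0.98), HSPH1 (0.71) and HSPA1B (0.71), which went against the ER chaperone. In the same list of 16 tested genes 4 fell (25%, beside 18.8% that rose), namely the metallothioneins MT2A (−0.69) and MT1E (−0.55) and the heat shock genes HSPB1 and DNAJB1. The heat shock genes themselves therefore went both ways.

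**Figure D3:**
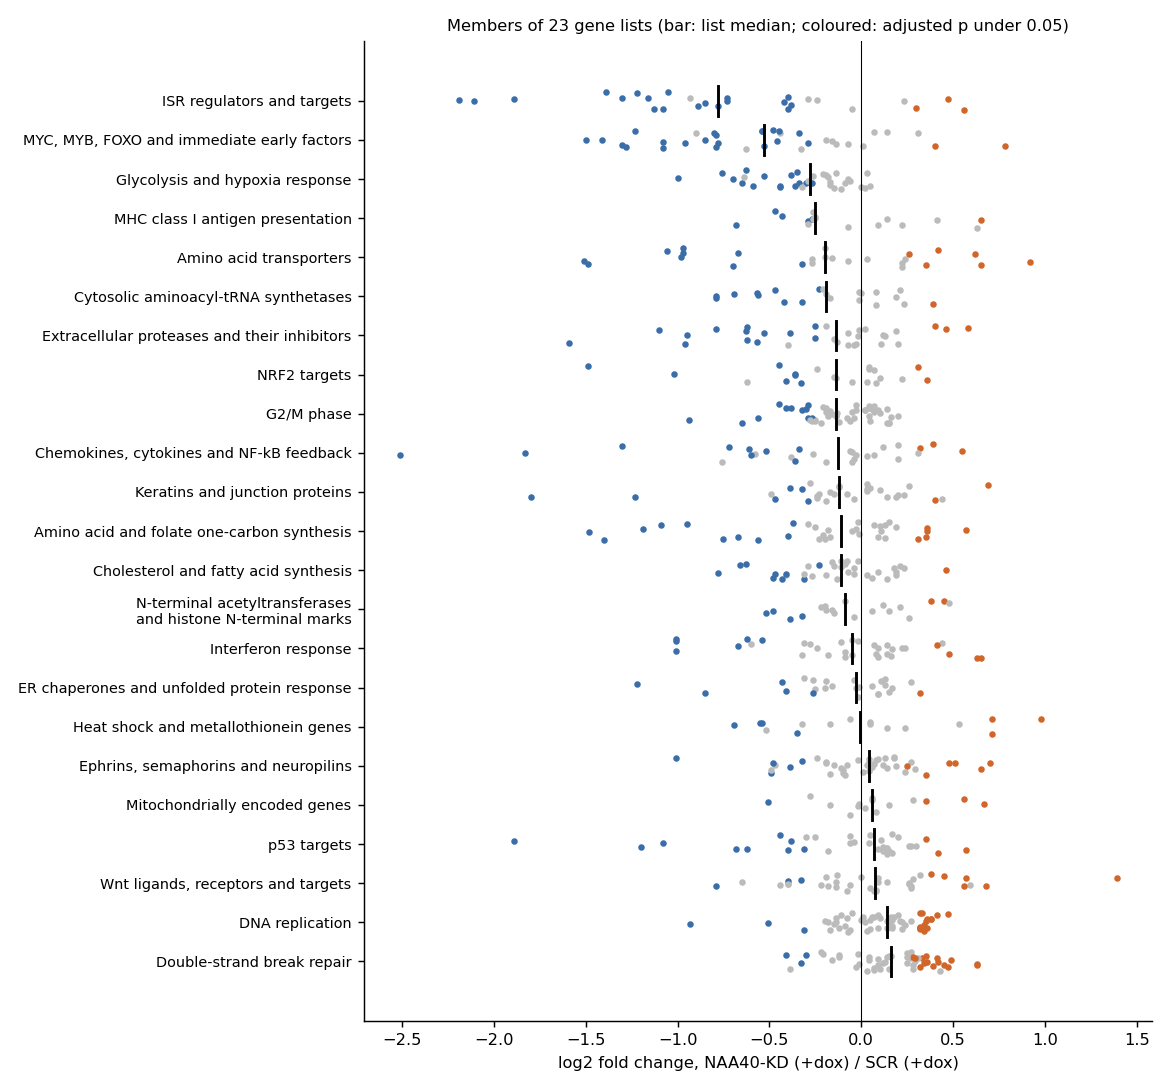
Log2 fold change, NAA40-KD (+dox) over SCR (+dox), of the tested members of 23 gene lists, 1 point a gene, coloured (blue lower, orange higher) at an adjusted p under 0.05, with a bar at each list's median. The medians run from −0.78 for the ISR list and −0.53 for the MYC and immediate early list to 0.14 and 0.16 for DNA replication and double-strand break repair.

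Promoters of the falling genes were searched for the C/EBP-ATF composite element, the sequence bound by ATF4 with a C/EBP partner, as TGATGNAA on either strand of the 300 bases from 250 before to 50 after each RefSeq start site on GRCh38.p14. It was present at 1217 of 27305 genes in the table (4.46%) and at 279 of the 10458 tested genes that matched it (2.67%). The share was 9.66% among the differentially expressed genes that were lower (17 of 176) and 4% among those that were higher (1 of 25). In the ISR, transporter, synthesis and tRNA synthetase lists combined, 16 of 40 falling members had a match (40%) and 5 of 43 that rose or did not pass (11.6%). By window, since a gene can have several start sites, these shares were 24.2% and 11.5%. The stricter form TGATGCAA, which the first motif includes, was found at 12 of the 40 (30%) and at 0.727% of tested genes. The lists hold genes known as ATF4 targets, so the shares are a description and a match is not a site shown to be bound.

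Stretches from the promoters of 5 falling genes are given to show how the motif sits there. They run 5′ to 3′ on the gene's strand, with the match in capitals, and a match on the other strand appears as the reverse complement of the motif. The match lies 209 bases before the start of CHAC1 (chr15:40953222-40953309, plus strand), 68 before that of ASNS (chr7:97872429-97872516, minus strand), 198 before that of GOT1 (chr10:99430775-99430862, minus strand), 16 before a start of JDP2 (chr14:75427966-75428021, plus strand) and 191 before that of ATF3 (chr1:212565176-212565263, plus strand).
CHAC1: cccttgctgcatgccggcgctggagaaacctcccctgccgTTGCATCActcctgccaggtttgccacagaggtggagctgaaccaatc
ASNS: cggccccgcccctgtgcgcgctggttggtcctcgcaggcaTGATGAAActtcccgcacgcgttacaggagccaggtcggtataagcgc
GOT1: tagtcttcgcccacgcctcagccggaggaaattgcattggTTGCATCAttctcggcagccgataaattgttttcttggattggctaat
JDP2: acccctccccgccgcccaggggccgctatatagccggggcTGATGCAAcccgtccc
ATF3: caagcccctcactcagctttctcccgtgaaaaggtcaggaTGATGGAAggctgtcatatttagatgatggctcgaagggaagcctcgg
In CHAC1, GOT1 and JDP2 the match has the stricter form, whereas ASNS and ATF3 have A and G at the open base.

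Immediate early and growth-factor response genes formed another falling group. Of 35 tested genes of the MYC, MYB, FOXO and immediate early list 21 fell (60%) and 2 rose (5.71%), 7 were differentially expressed and all 7 were lower, and the median was −0.53. In a fit over all 16 libraries 12 fell. KLF2, a zinc finger factor of quiescence, was at 26.9, 38.1, 59.3 and 65.4 CPM in SCR (+dox) and at 19, 15.1, 17.8 and 19.4 CPM in NAA40-KD (+dox). The SCR (+dox) libraries differed widely among themselves, yet all exceeded the highest NAA40-KD (+dox) library, with a log2 fold change of −1.41 ± 0.2 (edgeR adjusted p = 6.77e-05). DUSP1, a phosphatase that switches off MAP kinases, was at 40.3, 73.9, 77.7 and 72.8 CPM in SCR (+dox) and at 36.7, 29.9, 25.2 and 21.2 CPM in NAA40-KD (+dox), a log2 fold change of −1.23 ± 0.18 (edgeR adjusted p = 8.13e-05). SCR (+dox) replicate 1 was near the NAA40-KD (+dox) libraries for this gene. EGR3, MXD1 (−1.28), KLF6 (−1.08), IER3 (−0.96) and JUNB (−0.85) also fell.

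MYC and MYB, transcription factor genes of that list, did not fall. MYC was at 310, 302, 366 and 360 CPM in SCR (+dox) and at 339, 350, 385 and 400 CPM in NAA40-KD (+dox), with overlapping groups and a log2 fold change of 0.14 ± 0.09 (edgeR adjusted p = 0.286). MYB, a factor of progenitor cells, was low throughout, at 3.39, 3.05, 2.75 and 2.85 CPM in SCR (+dox) and at 4.92, 5.56, 4.89 and 5.28 CPM in NAA40-KD (+dox). It rose by 0.78 ± 0.16 (edgeR adjusted p = 0.00237) without overlap.

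Glycolysis and hypoxia-response genes fell moderately. Of 34 tested genes 15 fell (44.1%, where 13.7% of all genes fell), 0 rose and 0 were differentially expressed, with a median of −0.28, and 6 fell in a fit over all 16 libraries. ALDOC, a brain-type aldolase, was at 60.5, 58.2, 65.9 and 61.6 CPM in SCR (+dox) and at 32.6, 31.7, 28.5 and 30.5 CPM in NAA40-KD (+dox), a log2 fold change of −1.0 ± 0.09 (edgeR adjusted p = 5.21e-07). ALDOA, the main aldolase, was at 1120, 1030, 1350 and 1190 CPM in SCR (+dox) and at 683, 721, 740 and 748 CPM in NAA40-KD (+dox), a fall of 0.7 ± 0.09 (edgeR adjusted p = 2.87e-05). Other abundant glycolytic enzymes fell less, among them TPI1 (−0.44), PGK1 (−0.44), ENO1 (−0.38) and PKM (−0.35), and the hypoxia genes ANGPTL4 (−0.76) and NDRG1 (−0.63) fell too.

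Cell cycle genes did not move together. Of 56 DNA replication genes 15 rose and 3 fell, with a median of 0.14, and of 51 double-strand break repair genes 15 rose and 3 fell, with a median of 0.16, where 10.9% of all genes rose. These rises depend on the fit. In the fit over all 16 libraries 0 members of either list rose, by an adjusted p under 0.05 (edgeR), whereas DESeq2 on the 8 libraries gave 17 and 18. Without NAA40-KD (+dox) replicate 3 or 4 the replication rises were 5 and 7, without SCR (+dox) replicate 1 they were 9, and without NAA40-KD (+dox) replicate 4 the repair rises were 9. The 3 repair falls were 0 without NAA40-KD (+dox) replicate 2, 3 or 4, 1 without replicate 1 of either group and 5 without SCR (+dox) replicate 4.

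Within the replicative helicase, subunits went in opposite directions. MCM4 was at 187, 163, 229 and 207 CPM in SCR (+dox) and at 240, 238, 253 and 254 CPM in NAA40-KD (+dox), a log2 fold change of 0.32 ± 0.1 (edgeR adjusted p = 0.0203). The log2 fold change of MCM4 no longer passed without SCR (+dox) replicate 2 or NAA40-KD (+dox) replicate 3 or 4 (edgeR adjusted p = 0.0538, 0.0594 and 0.0586). MCM6 was at 142, 120, 146 and 134 CPM in SCR (+dox) and at 63.4, 67, 75.4 and 77.4 CPM in NAA40-KD (+dox), a fall of 0.93 ± 0.09 (edgeR adjusted p = 1.79e-06) while MCM2 (0.22), MCM3 (0.20) and MCM7 (0.05) did not pass. In repair, XRCC2, a homologous recombination factor, was at 15.3, 18.5, 13.8 and 13.2 CPM in SCR (+dox) and at 22.3, 24.3, 24.2 and 23.3 CPM in NAA40-KD (+dox), a rise of 0.63 ± 0.12 (edgeR adjusted p = 0.000763), and the helicase gene WRN rose by 0.63 ± 0.11 (edgeR adjusted p = 0.000494).

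Of 50 G2/M genes 11 fell (22%) and 0 rose, with a median of −0.13, and leaving out a NAA40-KD (+dox) library left 6 falls (replicate 1, 2 or 3) or 7 (replicate 4), while 1 gene rose without SCR (+dox) replicate 2. BIRC5, the apoptosis inhibitor and mitotic protein survivin, was at 90.9, 81, 121 and 96.8 CPM in SCR (+dox) and at 46.9, 53.7, 49.3 and 52.9 CPM in NAA40-KD (+dox), a log2 fold change of −0.94 ± 0.11 (edgeR adjusted p = 9.05e-06). CDC25B (−0.65) and KIF2C (−0.56) followed at a distance.

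Immune and inflammatory lists differed in how often their genes fell. Of 33 tested interferon-response genes 6 fell (18.2%) and 4 rose (12.1%), with a median of −0.05, and the rises were 2 without NAA40-KD (+dox) replicate 1 or 2. Of all genes 13.7% fell and 10.9% rose. IFI35, IRF7 and IFI6, interferon-inducible genes, each had a log2 fold change of −1.01, and PARP9 rose by 0.65. Of 28 tested chemokine, cytokine and NF-κB feedback genes 9 fell (32.1%) and 3 rose (10.7%), with a median of −0.12, and the rises were 1 without SCR (+dox) replicate 2 or NAA40-KD (+dox) replicate 1 or 4 and 5 without SCR (+dox) replicate 4. CXCL8, one of those that fell, exceeded 1 CPM in SCR (+dox) libraries only and so passed the filter through the group where it was higher. IL20RB, a receptor chain for IL-20 family cytokines, was at 4.89, 5.95, 4.54 and 4.89 CPM in SCR (+dox) and at 0.547, 0.89, 1.18 and 0.856 CPM in NAA40-KD (+dox), a log2 fold change of −2.51 ± 0.23 (edgeR adjusted p = 5.22e-07). Only replicate 3 of NAA40-KD (+dox) exceeded 1 CPM, so IL20RB too passed the filter through the group where it was higher. Of 17 tested genes of MHC class I presentation 5 fell (29.4%) and 1 rose (5.88%), with a median of −0.25, and 3 fell without NAA40-KD (+dox) replicate 3 or 4, while 2 rose without SCR (+dox) replicate 3 or 4. HLA-B fell by 0.47 and B2M, the shared light chain, by 0.43, although HLA genes are close copies whose reads may be shared.

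Of 34 tested p53 targets 9 fell (26.5%) and 3 rose (8.82%), with a median of 0.07, which has the opposite sign to the majority of the called members. Those with the largest falls, SESN2 (−1.89), GADD45A (−1.20) and the death receptor TNFRSF10B (−1.08), are also known as ATF4 or CHOP targets, while CDKN1A, the p21 gene, fell by 0.4 ± 0.08 (edgeR adjusted p = 0.00191). Of 21 NRF2 targets 7 fell (33.3%) and 2 rose (9.52%), with a median of −0.14, and the falls were 4 without SCR (+dox) replicate 1 and 3 without NAA40-KD (+dox) replicate 1. The rises were 1 without SCR (+dox) replicate 2 or 4 or any one of the NAA40-KD (+dox) libraries. Of 35 cholesterol and fatty acid synthesis genes 9 fell (25.7%) and 1 rose (2.86%), with a median of −0.11. TM7SF2 (−0.78) and ELOVL6 (−0.66) were lower, and ACACA, which commits carbon to fatty acids, rose by 0.46. The rises numbered 4 without SCR (+dox) replicate 4.

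Extracellular proteases and their inhibitors fell more often than keratin and junction genes, where 13.7% of all genes fell. Of 31 tested keratin and junction genes 6 fell (19.4%) and 2 rose (6.45%), with a median of −0.12. KRT20, the keratin of mature colon epithelium, was at 7.41, 6.19, 6.92 and 5.99 CPM in SCR (+dox) and at 1.09, 2.08, 2.15 and 2.14 CPM in NAA40-KD (+dox), a log2 fold change of −1.80 ± 0.2 (edgeR adjusted p = 4.26e-06). KRT23 fell by 1.23 ± 0.15 (edgeR adjusted p = 9.52e-06) and KRT80 rose by 0.69 ± 0.14 (edgeR adjusted p = 0.00176). Of 32 tested extracellular proteases and inhibitors 13 fell (40.6%) and 3 rose (9.38%), with a median of −0.14, and 8 fell without NAA40-KD (+dox) replicate 4. SERPINB8, a serine protease inhibitor, was at 15.7, 15.6, 16.8 and 14.8 CPM in SCR (+dox) and at 4.47, 5.56, 5.48 and 5.28 CPM in NAA40-KD (+dox), a log2 fold change of −1.59 ± 0.13 (edgeR adjusted p = 9.37e-08). Within the tissue inhibitors of metalloproteases TIMP1 fell by 0.62 and TIMP2 rose by 0.58.

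Signalling lists held few large changes. Of 36 tested Wnt genes 3 fell (8.33%) and 6 rose (16.7%), with a median of 0.08, and without SCR (+dox) replicate 4 these were 5 and 10. WNT7A, a Wnt ligand, was at 3.23, 2.04, 1.78 and 2.7 CPM in SCR (+dox) and at 6.93, 6.67, 5.7 and 6.42 CPM in NAA40-KD (+dox), a rise of 1.39 ± 0.19 (edgeR adjusted p = 4.35e-05). CCND1, cyclin D1, rose by 0.68, with means of 509 and 817 CPM. Of 43 tested ephrin, semaphorin and neuropilin genes 5 fell (11.6%) and 6 rose (14%), with a median of 0.04, near the 13.7% and 10.9% of all genes. Without single NAA40-KD (+dox) libraries these were 3 falls (replicate 1, 3 or 4) and 2 rises (replicate 1 or 4) or 3 (replicate 2). NRP1, a co-receptor for semaphorins and VEGF, fell by 1.01 ± 0.12 (edgeR adjusted p = 6.8e-06).

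Of 19 tested genes of N-terminal acetyltransferases and the histone N-terminal marks 4 fell (21.1%) and 2 rose (10.5%), with a median of −0.09. In the fit over all 16 libraries 0 passed in either direction (edgeR), and the rises were 1 without NAA40-KD (+dox) replicate 3 while the falls were 6 without SCR (+dox) replicate 4. NAA15, the ribosome anchor of the NatA complex, fell by 0.48 (148 to 106 CPM on average) and NAA25, the auxiliary subunit of NatB, rose by 0.45 (122 to 167 CPM). Of 15 mitochondrially encoded genes 3 rose (20%) and 1 fell (6.67%), with a median of 0.06, and without SCR (+dox) replicate 2 the rises were 5 and without SCR (+dox) replicate 4 the falls were 2. MT-CYB rose by 0.67 and the ribosomal RNA MT-RNR2 by 0.56, while the other ribosomal RNA, MT-RNR1, fell by 0.51, so that the called genes went both ways. The groups of MT-RNR1 overlapped. In the fit over all 16 libraries, and against SCR (−dox), 0 mitochondrially encoded genes fell. Across nuclear chromosomes the median ran from −0.055 on chromosome 19 to 0.068 on chromosome 13.

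Single genes outside these lists gave some of the largest changes. The biggest fall among genes of at least 5 CPM in a group was that of C2orf78, an uncharacterised gene, at 6.39, 5.72, 6.62 and 7.52 CPM in SCR (+dox) and 1.18, 1.04, 0.888 and 1.36 CPM in NAA40-KD (+dox), with a log2 fold change of −2.55 ± 0.2 (edgeR adjusted p = 8.83e-08). FSD1, a microtubule-associated protein gene, was at 19.9, 21.8, 25.4 and 25.1 CPM in SCR (+dox) and at 4.74, 4.89, 5.11 and 6.21 CPM in NAA40-KD (+dox), a fall of 2.13 ± 0.13 (edgeR adjusted p = 1.31e-08). MAP1LC3B, the LC3 protein of autophagosome membranes, was the most abundant gene among the 12 largest falls, at 316, 331, 333 and 281 CPM in SCR (+dox) and 85.4, 91.7, 86.9 and 86.8 CPM in NAA40-KD (+dox). It fell by 1.84 ± 0.09 (edgeR adjusted p = 2.28e-10), and the NAA40-KD (+dox) libraries differed little among themselves. LINC02323 (−2.05), LURAP1L (−1.92), the vessel-destabilising ligand gene ANGPT2 (−1.85) and TMEM154 (−1.84) completed the set with the genes named above.

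The largest rises were smaller than the largest falls. ZNF469, a zinc finger gene, was at 27.6, 32.5, 22.4 and 36.4 CPM in SCR (+dox) and at 60.9, 53.2, 59.3 and 66.7 CPM in NAA40-KD (+dox), a rise of 1.01 ± 0.13 (edgeR adjusted p = 1.71e-05), and was the most abundant of the 12. GPR63, an orphan receptor gene, was at 9.15, 10.4, 6.1 and 8.33 CPM in SCR (+dox) and at 19.5, 20.1, 17.6 and 20.1 CPM in NAA40-KD (+dox), a rise of 1.19 ± 0.14 (edgeR adjusted p = 9.1e-06). ZNF488 (1.17), WWC3 (1.15), the channel gene ASIC4 (1.10), the lipid flippase gene ATP8A1 (1.06) and the Notch glycosyltransferase gene LFNG (1.03) rose by similar amounts. SLC25A25-AS1 rose by 1.29 while SLC25A25, which it overlaps, fell by 1.20, and without the strand setting the reads of this pair cannot be told apart.

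The contrast of the same lines labelled (−dox) was set beside these changes. In those libraries 492 genes of 13903 were lower (3.54%) and 400 higher (2.88%). NAA40-KD (−dox) replicate 4 stood apart from its group, and without it 2674 were lower (19.4%) and 2347 higher (17.1%), so both sets of values are given. Of the 250 genes lower in the (+dox) contrast, 236 were tested in the (−dox) contrast, 189 had the same sign there (80.1%) and 48 passed the test as lower and 4 as higher. Without replicate 4 of NAA40-KD (−dox) 197 of 233 had the same sign (84.5%), 111 were lower and 10 higher. Genes differentially expressed and lower in both contrasts numbered 40, which is 16% of the 250 and 15.6% of the 257 of the (−dox) contrast (1.85% of its tested genes). Without that library they numbered 57, or 22.8% of the 250 and 16.5% of 346 (2.52%). The contrasts share no libraries, though they share the lines.

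**Figure D4:**
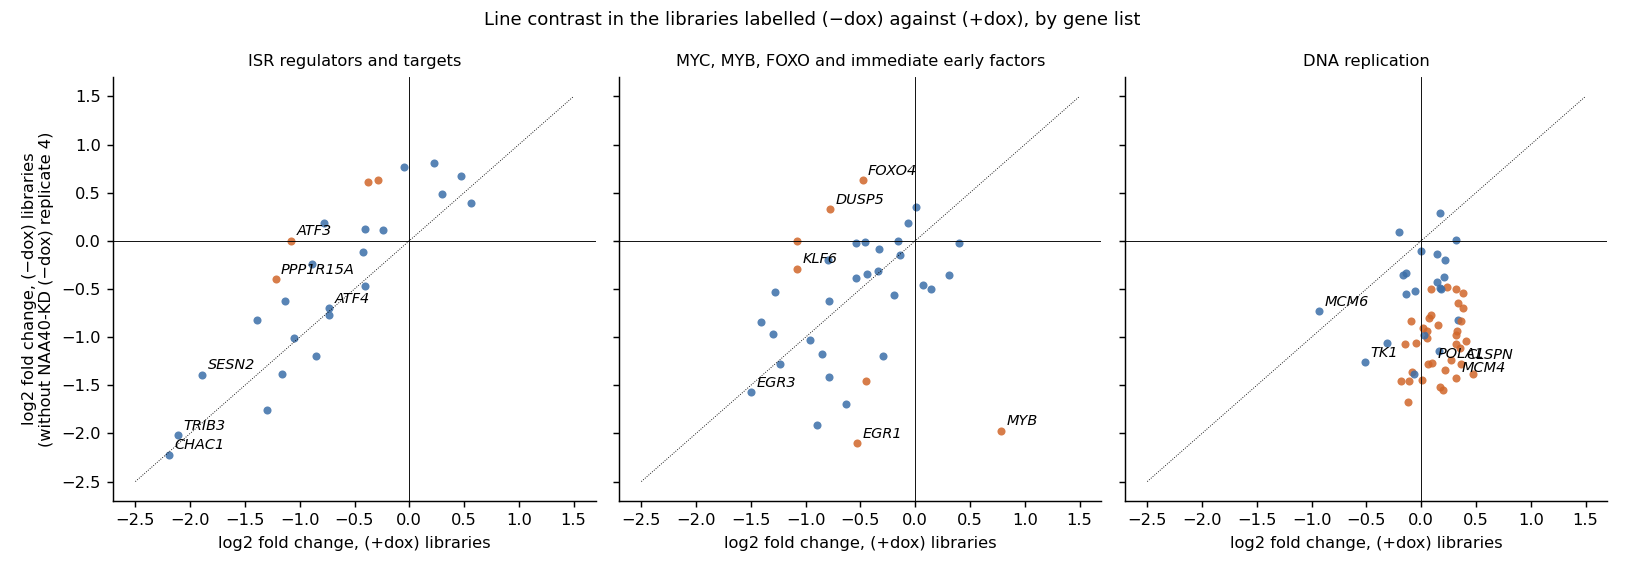
Log2 fold change between the lines in the (−dox) libraries without NAA40-KD (−dox) replicate 4 (vertical axis) against that in the (+dox) libraries (horizontal axis) for 3 gene lists, 1 point a gene, orange where the interaction passed with and without that library, with the line of equality dotted. TRIB3 and CHAC1 lie near that line, MYB is at 0.78 and −1.97, and most replication genes lie above 0 on the horizontal axis and below 0 on the vertical one.

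The difference between the contrasts was tested itself, as an interaction over 16 libraries, in which 1327 of 14392 genes passed (9.22%, 4.91% with a negative and 4.31% with a positive difference), or 3467 of 14302 without NAA40-KD (−dox) replicate 4 (24.2%, 12.3% and 11.9%). Of the 250 lower genes 69 had a fall that was larger in the (+dox) contrast by this test and 4 a fall that was larger in the (−dox) contrast, or 104 and 6 without that library. The 250 were chosen by their fall in (+dox) libraries that the interaction also uses. That choice favours falls larger in the (+dox) contrast, so these counts only describe the genes. Among 26 ISR list members tested in the (−dox) contrast 6 fell and 1 rose, with a median of −0.12, beside −0.78 in the (+dox) contrast. Without NAA40-KD (−dox) replicate 4, 12 fell and 7 rose, with a median of −0.32. Of the ISR list 4 members passed the interaction. TRIB3 and CHAC1 were not among them, with (−dox) log2 fold changes of −1.62 and −1.86 beside −2.11 and −2.19. PPP1R15A was −0.14 in the (−dox) contrast, with an interaction of −1.07 (edgeR adjusted p = 0.029), and ATF3 was 0.08, with an interaction of −1.15 (edgeR adjusted p = 0.01). Both passed without the library that stood apart as well (edgeR adjusted p = 0.00506 and 0.00126).

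Replication genes differed between the contrasts more often than members of any other list examined. In the (−dox) contrast 26 of the 56 fell and 0 rose, with a median of −0.85, beside 0.14 in the (+dox) contrast, and 35 of them passed the interaction. Without NAA40-KD (−dox) replicate 4, 50 fell with a median of −0.92. MCM4 was −1.41 in the (−dox) contrast, with an interaction of 1.75 (edgeR adjusted p = 0.000119), and XRCC2 was −1.31, with an interaction of 1.94 (edgeR adjusted p = 0.00148). MCM6 fell in both, with −0.84 in the (−dox) contrast and an interaction that did not pass (−0.09, edgeR adjusted p = 0.842). MYB fell by 2.12 there (edgeR adjusted p = 0.00342) and rose in the (+dox) contrast, an interaction of 2.90 (edgeR adjusted p = 2.22e-05). In the other direction NR4A3, a nuclear receptor of the immediate early class, was at 4.34, 4.62, 4.02 and 3.51 CPM in SCR (+dox) and at 1.91, 0.964, 1.78 and 2.07 CPM in NAA40-KD (+dox). It fell by 1.29 in the (+dox) contrast and rose by 1.10 in the (−dox) contrast, an interaction of −2.38 (edgeR adjusted p = 0.000194).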

How the data were processed

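RNA was sequenced in 16 HCT116 libraries, and the 8 labelled (+dox) were compared here. The authors deposited raw counts, the whole number of reads per gene for 33937 genes, without normalization. The submitters' notes list STAR, featureCounts, limma, hg38 and GRCm38, and the methods name mm10, although all gene identifiers are human. The methods name RNeasy columns and a stranded NEBNext kit, the labels Direct-zol columns and an Illumina preparation, and neither states whether counting used strand, so overlapping and antisense genes are uncertain. Weak genes carry the largest counting error at these depths.

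From the deposited counts, edgeR 4.0.16 in R 4.3.3 was run with TMM normalization, genes above 1 CPM in at least 4 libraries, robust quasi-likelihood tests (two-sided) and Benjamini-Hochberg adjustment. Differential expression meant a change above 1 on the log2 scale, either way, at an adjusted p under 0.05. Standard errors were derived from the fold changes and F statistics. The interaction was fitted on all 16 libraries. Coordinates are those of GENCODE 29 on GRCh38. The script was tested on simulated data.

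The 25 gene lists, the members and the alternatives were chosen with earlier results of these data known. Genes were picked by rule: those with primers in the study, up to 12 largest falls and 12 largest rises with separate groups and at least 5 CPM, up to 8 called members and the 3 anchors of each list, up to 6 interactions in each direction, and promoters with the motif. Not all genes picked so are described above. Of those with primers, POLA1, CTH, MMAA, IFIT1 and ACTB did not pass, and FOXO4 fell by 0.48 (edgeR adjusted p = 0.0102). HSPA5, HBEGF, ERRFI1, SLC25A25, STK40, TUBA1A, LAT2 and further list members and families, named as examples, were added after their values were seen. One gene that the paper discusses is left out.

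Groups came from the labels. The number of count columns not matched to a sample was 0. The samples were treated as unpaired, since correlations of same-numbered deviations were −0.061, 0.166, 0.102 and 0.241 and not all exceeded 0.1. So few correlations cannot exclude that the replicate numbers pair the samples. Counts of any 2 libraries of a group differed beyond sampling noise, and p-values measure the spread between these samples. Alternatives were DESeq2 1.42.0, limma-voom (limma 3.58.1), library-size and upper-quartile scaling, other filters, all 16 libraries, other controls, a replicate block, a GC offset, other thresholds and each library left out.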

Additional observations from a re-analysis of the deposited data

Results flagged for a closer look

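Of 90 groups of 4 values looked at (44 genes, and the library totals), 5 had a lowest or highest library whose gap to the next exceeded Dixon's critical share of the range, where chance gives about 1 in 20. SLC7A5 was at 1760 CPM in SCR (+dox) replicate 4, DUSP1 at 40.3 CPM in SCR (+dox) replicate 1, AREG at 1100 CPM in SCR (+dox) replicate 3 and KRT20 at 1.09 CPM in NAA40-KD (+dox) replicate 1. The total count of NAA40-KD (+dox) replicate 1 was 11065606, below the others of its group.

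For 18 of the 44 genes the difference between the lines differed between the (+dox) and the (−dox) libraries by the interaction test (edgeR, adjusted p under 0.05). Of all genes 9.22% did so. NR4A3 was picked by this same test, and others, such as STK40 and LAT2, after their values were seen. The count of 18 therefore only describes these genes. The differences of log2 fold changes, (+dox) minus (−dox), were positive for NAA40 (1.46), MYB (2.90), MCM4 (1.75), XRCC2 (1.94), SERPINB8 (1.11), ZNF469 (1.40) and GPR63 (1.30). They were negative for PPP1R15A (−1.07), ATF3 (−1.15), HSPA5 (−0.86), ALDOC (−1.72), FSD1 (−0.96), STK40 (−1.80), LAT2 (−1.71), NR4A3 (−2.38), HLA-DRB1 (−1.65), AREG (−1.10) and TUBA1A (−1.11). STK40, a pseudokinase gene, LAT2, a membrane adaptor gene, and HLA-DRB1 had (−dox) log2 fold changes of 0.53, 0.15 and 0.14, none of which passed the test (edgeR adjusted p = 0.15, 0.716 and 0.663), while their (+dox) values were −1.29, −1.57 and −1.52 and passed.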

How the results depend on the processing

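The 298 differentially expressed genes became 504 without a filter on low counts and 168 with CPM above 1 in every library, 130 of the 298 not being tested there. DESeq2 gave 293 genes, of which 291 were shared, and with the replicate number as a block there were 299, of which 288 were shared, although the block moved the rises from 6 to 10 in the Wnt list, from 2 to 4 in the keratin and junction list and from 1 to 2 in the ER chaperone and tRNA synthetase lists. Leaving out each (+dox) library gave 251 to 303. The 3402 genes with an adjusted p under 0.05 became 966 in the fit over all 16 libraries and 1761 at a threshold of 0.01, and 2334 to 3482 with each library left out. For the (−dox) contrast 483 differentially expressed genes became 82 under the replicate block and 182 to 587 with a library left out, the highest without NAA40-KD (−dox) replicate 4 and the lowest without SCR (−dox) replicate 4. The interaction's 1327 genes became 820 to 3467, the highest again without NAA40-KD (−dox) replicate 4. In the fit over all 16 libraries 6 glycolysis genes fell, 12 immediate early genes fell, and 0 replication and 0 repair genes rose. Replication rises numbered 3 against SCR (−dox), 9 against all 8 SCR libraries and 4 at a threshold of 0.01, where repair rises numbered 7, and with a library left out they were 5 to 20 and 9 to 16. The NAA40 difference was 2.47 to 3.63 CPM with a library left out, with p from 0.0286 to 0.0857. Against SCR (−dox) the log2 fold changes of KRT15 (0.03), PLAU (0.07) and MT-ATP8 (−0.04) changed sign. The cause was not tested for any of these. Of 237 genes that passed among those followed by name, 194 passed in every leave-one-out fit that tested them, and against SCR (−dox) 43 no longer passed. Depth limits the genes under 5 CPM most, and these made up 186 of the 298.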

Other observations

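Some families outside the lists were looked at because a member had a large change, so their counts are descriptions of genes picked after their values were seen. HLA-DRA of MHC class II and RAET1L of the NKG2D ligands exceeded 1 CPM in no NAA40-KD (+dox) library and so passed the filter only through the group where they were higher, and no counts are given for these families. HLA-DRB1, an MHC class II gene whose product presents peptides to CD4 T cells, was at 7.18, 7.99, 8.03 and 8.69 CPM in SCR (+dox) and at 3.1, 3.49, 2.07 and 2.5 CPM in NAA40-KD (+dox), a log2 fold change of −1.52 ± 0.17 (edgeR adjusted p = 7.12e-06). HLA-DQB1 (−1.51, edgeR adjusted p = 6.8e-05) and HLA-DMA (−0.71, edgeR adjusted p = 0.00226) fell too. HLA-DMB did not pass (−0.60, edgeR adjusted p = 0.116), and reads of these closely related genes may be shared. ULBP1, which codes for a ligand of the receptor NKG2D, was at 39.9, 42.7, 45.5 and 43 CPM in SCR (+dox) and at 16, 15.5, 16.1 and 14.8 CPM in NAA40-KD (+dox). ULBP2 (−0.59, edgeR adjusted p = 0.0035) and RAET1E (−0.78, edgeR adjusted p = 0.0086) fell as well, although the groups of RAET1E overlapped. MICA (−0.15), MICB (−0.05) and ULBP3 (0.38) did not pass.

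Of 7 ATG8 family genes, which code for autophagosome proteins, 4 were tested and all 4 fell, where 13.7% of all genes fell. MAP1LC3B fell by 1.84 and MAP1LC3B2, GABARAPL2 and GABARAPL1 by 1.01, 0.40 and 0.36. GABARAPL1 did not keep its call with each library left out (highest edgeR adjusted p = 0.0686). In the (−dox) contrast it rose by 0.60 (edgeR adjusted p = 0.0337) and MAP1LC3B fell by 1.00 (edgeR adjusted p = 0.0478), while MAP1LC3B2 and GABARAPL2 did not pass. MAP1LC3B and MAP1LC3B2 are near-identical copies whose reads may be shared. Of 6 tested genes for ligands of the EGF receptor 4 fell and 0 rose, again beside 13.7% of all genes that fell. TGFA (−0.27) was among the 4 but did not keep its call with each library left out (highest edgeR adjusted p = 0.109). AREG, amphiregulin, was at 796, 769, 1100 and 818 CPM in SCR (+dox) and at 370, 369, 297 and 299 CPM in NAA40-KD (+dox), a fall of 1.38 ± 0.12 (edgeR adjusted p = 1.9e-07). HBEGF was at 23.7, 25.8, 29.4 and 27.3 CPM in SCR (+dox) and at 10.8, 11.3, 13.8 and 12.9 CPM in NAA40-KD (+dox), and EREG, beside AREG on the chromosome, did not pass (−0.18, edgeR adjusted p = 0.185). ERRFI1, an inhibitor of that receptor, was at 1950, 1830, 1780 and 1770 CPM in SCR (+dox) and at 876, 858, 763 and 760 CPM in NAA40-KD (+dox), a log2 fold change of −1.17 ± 0.09 (edgeR adjusted p = 3.94e-08).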
